A study of Mus musculus with 4 samples.

Results

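Radial glia are the elongated progenitors of the embryonic cerebellum, and Bergmann glia are the unipolar astrocytes that descend from them and keep a radial fibre. Newborn granule neurons migrate inward along that fibre, and the glia also clear glutamate and hold the layers of the cortex together. At birth these cells share a gene programme of fatty acid binding, glutamate uptake, intermediate filaments and SOX transcription factors.

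The genes described here are 10 that mark this lineage, namely Fabp7, Slc1a3, Aqp4, Nes, Vim, Gfap, Sox2, Sox9, Gdf10 and Tnc. A feature (a spot on the array) was taken as a member when its annotated symbol was one of these names or a synonym of one. This gave 35 of 38880 features, all annotated with the current name and none through a synonym, and all 10 genes of the 19909 measured. Vim had 14 features, Tnc 6, Aqp4 4, and Nes, Gfap, Sox2 and Gdf10 2 each. Fabp7, Slc1a3 and Sox9 had 1 feature each.

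The tissue was whole cerebellum of newborn C57Bl/6 mice (postnatal day 0). Each of 4 arrays was hybridised with a wild-type RNA in 1 dye and the RNA of Smarca5 conditional knockout mice (Smarca5 cKO) in the other. Smarca5 encodes Snf2h, the ATPase of the ISWI nucleosome remodelling complexes, and the comparison asks which genes differ when it is deleted. There were 3 RNA samples per genotype. Replicates 1 and 4 shared a wild-type RNA (sample 224), replicates 3 and 4 shared a cKO RNA (sample 231), and replicate 2 shared none. The dye of the cKO RNA was Cy5 on replicates 1 and 3, and it was Cy3 on the dye-flip arrays, replicates 2 and 4. The labels do not give the driver of the deletion or the cells in which it acts. They also do not tie an RNA sample to a number of animals, so p-values measure only the spread between these samples and arrays, which may be partly technical.

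Values are given as log2 ratios, cKO over wild type, with each array's median set to 0. Neither the direction nor the log base is stated for the deposited ratios: this direction is the likely one, and base 2 was assumed. Ratios carry no expression level, so the abundance of a glial transcript in either genotype, and whether a feature was dim or saturated, were not analysed here. In whole cerebellum, fewer glia and less RNA per glial cell cannot be told apart. The feature annotated Smarca5, the targeted gene, had -0.36, -1.16, -1.43 and -0.75 on replicates 1 to 4. A feature annotated with a clone name that is now a synonym of Smarca5 had 0.01, 0.34, 0.10 and 0.47. Neither feature could be placed against the deleted part of Smarca5. The sign of the first was used to choose the direction, so it is no check of the labels, and the second has the opposite sign.

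No glial marker passed the test of a difference between genotypes, and with all 4 arrays in the fit Gfap was the only one of the 10 whose interval did not lie within a 2-fold difference. With limma and Benjamini-Hochberg adjustment over all genes, 0 of the 10 had an adjusted p under 0.05 in either direction, and the smallest adjusted p among them was 1. Over all genes 0% were called higher and 0% lower. At an unadjusted limma p under 0.05 there were 0 of the 10 members, against 1.56% of all genes (310). The p-values and intervals depend on the correlation assumed between arrays that share an RNA sample. With arrays fitted as independent, 995 of all genes had an unadjusted limma p under 0.05. The smallest adjusted limma p of all genes was then 0.089, and an estimated correlation gave nearly the same. In both fits 0 of the 10 members had an unadjusted p under 0.05, and 9 intervals stayed inside 2-fold. A ratio of 1 sign on all 4 arrays was found in 0 of the 10, against 11.6% of all genes. Feature by feature, 0 of the 35 had an unadjusted p under 0.05 (1.34% of all features), 0 lay above 0 on all 4 arrays (5.46%) and 1 lay below 0 on all 4 (5.45%). The median fitted ratio of the 10 was -0.01, and that of all genes was 0.00. Fitted ratios lay from -0.32 (Tnc) to 0.41 (Gfap), and the 95% intervals of 9 of the 10 stayed inside a 2-fold difference (1 on the log2 scale) in both directions, as did those of 60.8% of all genes. That number depended on replicate 2, since without it only 4 of the 10 stayed inside, and Aqp4, Nes, Sox2, Sox9 and Tnc joined Gfap in not doing so. The fitted ratios then rest on replicates 1 and 3 alone, as replicate 4 again has a weight of 0. Over all genes, those at an unadjusted limma p under 0.05 fell from 310 to 139. The share of all genes inside 2-fold was not computed for that fit, so whether the drop is particular to the members is not known.

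**Figure D1:**
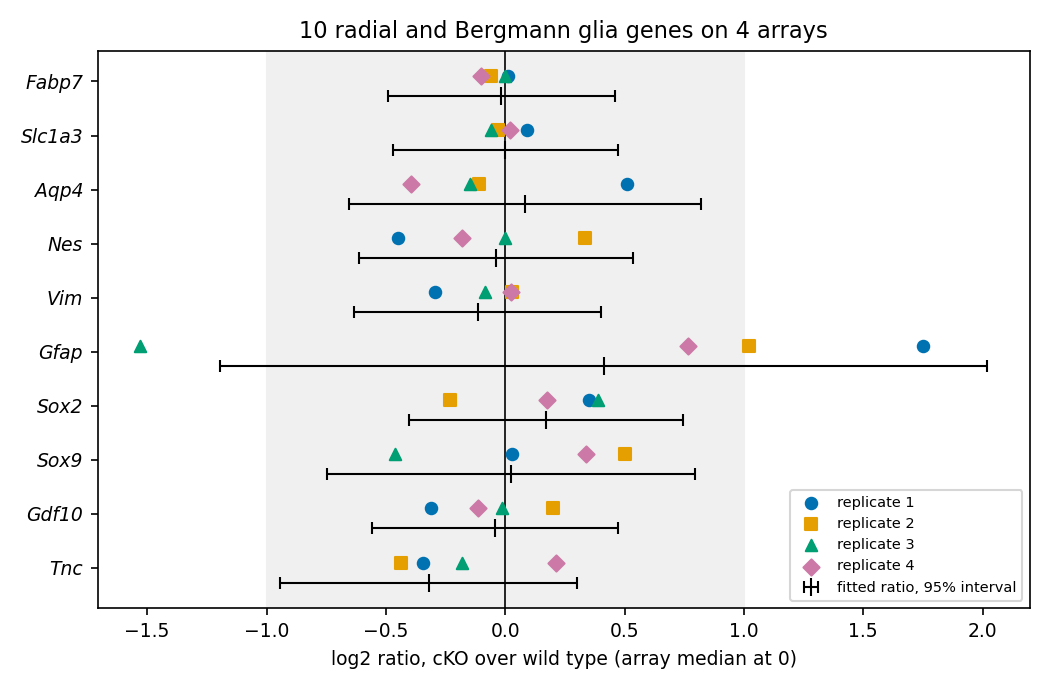
Log2 ratio of cKO over wild type of each of the 10 genes on replicates 1 to 4 (coloured markers, mean over the features of a gene), with the fitted ratio and its 95% interval in black. The grey band marks differences under 2-fold, and the Gfap markers run from -1.53 on replicate 3 to 1.75 on replicate 1 while those of Fabp7 and Slc1a3 lie almost on 0.

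Among the genes of transport and lipid binding, 2 classical Bergmann glia markers had ratios near 0 on every array. Fabp7, the brain fatty acid binding protein of radial glia, had ratios of 0.01, -0.06, 0.00 and -0.10 on replicates 1 to 4. Slc1a3, the glutamate-aspartate transporter GLAST, had ratios of 0.09, -0.03, -0.06 and 0.02. Both genes thus had nearly equal signal in the 2 channels of every array, whichever RNA samples and dyes were used. Their largest deviation from 0 was 0.10 and 0.09, and 0.893% and 0.725% of all features stayed as close to 0 on every array. Saturated spots also give ratios near 0, and whether these 2 were saturated was not tested. The fitted ratio was -0.02 ± 0.19 (SE) for Fabp7, with a 95% interval from -0.49 to 0.46, and 0.00 ± 0.19 (SE) for Slc1a3, from -0.47 to 0.47. These standard errors are larger than the spread over the 4 arrays (SD 0.05 and 0.07) because limma draws each gene's variance toward that of all genes.

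Aqp4, the water channel of astrocyte endfeet, had gene ratios of 0.51, -0.11, -0.15 and -0.40 on replicates 1 to 4, above 0 on replicate 1 only. Of its 4 features 2 agreed closely. The feature UT21195 had 0.88, 0.48, -0.11 and 0.33, and UT24056 had 0.83, 0.23, -0.10 and 0.38, so these 2 differed by at most 0.25 on any array. The feature UT10431 had 0.65, -0.76, -0.65 and -1.30, and UT10429 had -0.32, -0.39, 0.27 and -0.99. These last 2 differed in sign on replicates 1 and 3, and both lay below 0 on replicates 2 and 4, where the first 2 lay above it. The fitted gene ratio was 0.08 ± 0.30 (SE; 95% interval from -0.65 to 0.82). With the median of the features in place of the mean the interval of Aqp4 no longer stayed inside 2-fold. Without replicate 1 the ratio was -0.20 (limma p 0.422, adjusted p 1).

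The intermediate filament genes differed most among themselves. Nes encodes nestin, the filament protein of neural progenitors, Vim encodes vimentin, which radial glia share with meninges and vessels, and Gfap encodes the filament protein of more mature astroglia. Gfap had gene ratios of 1.75, 1.02, -1.53 and 0.77 on replicates 1 to 4. It was high on 3 arrays and low on replicate 3, and both of its features had the same sign as the gene on every array. The feature UT22140 had 0.41, 1.26, -2.13 and 0.81, and UT24943 had 3.09, 0.78, -0.93 and 0.72. The values on replicates 1 and 3 were at percentiles 99.0 and 0.575 of all genes on those arrays, and the SD over the 4 arrays was at percentile 98.6.

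The same cKO RNA read below 1 wild-type sample and above another for Gfap. On replicates 3 and 4, which share cKO sample 231, the ratio differed by -2.30 (replicate 3 minus replicate 4), a size at percentile 98.9 of all genes. On replicates 1 and 4, which share wild-type sample 224, it differed by 0.99. The dye of the cKO RNA also differed within both pairs, and the part of dye, wild-type sample and array in these differences was not tested. The fitted ratio of Gfap was 0.41 ± 0.65 (SE), with a 95% interval from -1.19 to 2.02 (limma p 0.55, adjusted p 1). Without replicate 3 it was 1.16 (limma p 0.0301, adjusted p 1), without replicate 1 it was 0.22 and without replicate 2 it was 0.11. With the columns of replicates 2 and 4 turned, that is with their sign reversed, it was -0.27. Such turning would suit a fixed ratio of the dyes, a reading that the 47 features described under processing did not follow.

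Nes and Vim had smaller and mixed ratios. Nes had gene ratios of -0.45, 0.34, 0.00 and -0.18 on replicates 1 to 4, and its 2 features disagreed in sign on every array, with -1.13 against 0.23 on replicate 1. Its fitted ratio was -0.04 ± 0.23 (SE), and it was 0.09 without replicate 1 and -0.23 without replicate 2. Vim had -0.29, 0.03, -0.08 and 0.03, a range at which the 4 arrays overlap 0 on both sides. Of its 14 features, 11 had a fitted ratio below 0 and 3 above, from -0.61 to 0.21, and the fitted gene ratio was -0.12 ± 0.21 (SE). The feature with the lowest ratio, UT02442, owed it to 1 array, with -1.97 on replicate 1 and -0.02 to 0.16 on the others. Without that feature the ratio of Vim was -0.08. The feature UT24332 was the only 1 of the 35 member features to keep its sign on all arrays, at -0.48, -0.39, -0.80 and -0.41, against 10.9% of all features. Its fitted ratio was -0.56 ± 0.24 (SE; limma p 0.0632, adjusted p 1). The other 13 Vim features had no such pattern, and whether all 14 measure the same Vim transcript is not known here.

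**Figure D2:**
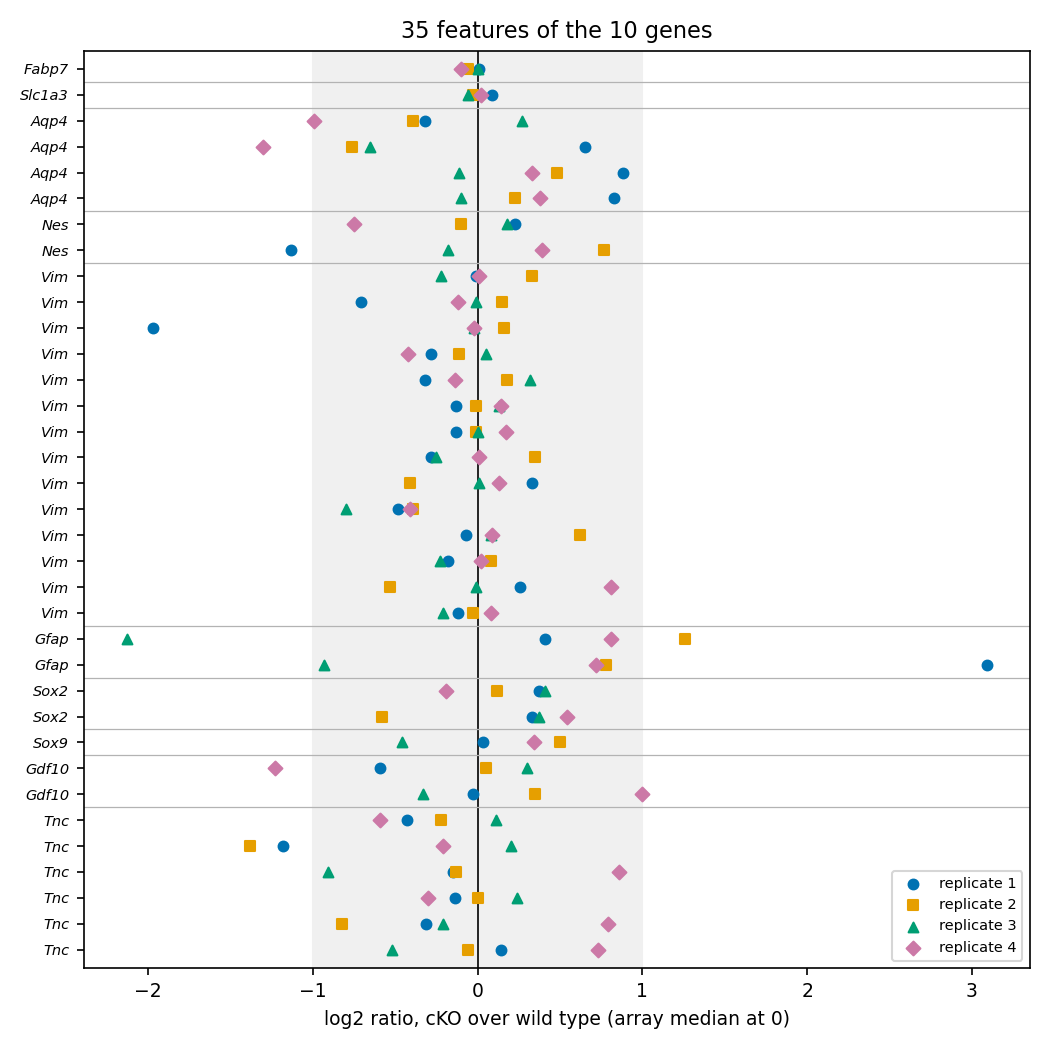
Log2 ratio of cKO over wild type of each of the 35 features on replicates 1 to 4, a row for each feature, grouped by gene. The 2 Gfap features lie below 0 on replicate 3 and above 0 on the other arrays. On every array the features of Nes, Vim and Aqp4 lie on both sides of 0. Those of Tnc do so on all arrays but replicate 2, where none lies above 0.

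The SOX factors keep glial progenitors in their state, and Sox9 also drives the start of gliogenesis. Sox2 had gene ratios of 0.35, -0.23, 0.39 and 0.18 on replicates 1 to 4, high on all arrays but replicate 2. Its features agreed on replicates 1 and 3, with 0.37 and 0.33 on the first and 0.41 and 0.37 on the second, and differed in sign on the other arrays. The fitted ratio was 0.17 ± 0.23 (SE), 0.37 without replicate 2, 0.06 without replicate 1 and 0.05 without replicate 3. Sox9 had 0.03, 0.50, -0.46 and 0.34, so that the arrays with cKO in Cy3 were high and those with cKO in Cy5 lower. The mean was 0.42 on the former and -0.22 on the latter, and with dye as a term of the model the dye coefficient of Sox9 was -0.30 (limma p 0.034, adjusted p over all genes 0.212). How many of all genes had a dye p as small was not counted, so whether this dye difference is particular to Sox9 is not known. The fitted genotype ratio of Sox9 was 0.02 ± 0.31 (SE), 0.12 with the dye term, and -0.31 with the columns of replicates 2 and 4 turned. The ratio was -0.22 without replicate 2, and its interval did not stay inside 2-fold without replicate 1 or without replicate 2.

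The secreted and matrix proteins were Gdf10, a BMP family ligand made by Bergmann glia, and Tnc, the matrix protein tenascin-C of glial and meningeal origin. Tnc had gene ratios of -0.35, -0.44, -0.18 and 0.21 on replicates 1 to 4, below 0 on all arrays but replicate 4. Replicate 4 had a weight of 0 in the fitted value, which was -0.32 ± 0.25 (SE; limma p 0.253, adjusted p 1). With all 4 arrays weighted alike the ratio of Tnc was -0.19. Of its 6 features 5 had a fitted ratio below 0, the lowest being UT15254 at -0.79 ± 0.38 (SE, limma p 0.0853, adjusted p 1), with -1.18, -1.38, 0.20 and -0.21 on the arrays. With the median of the features the ratio of Tnc was -0.15, and with columns turned it was -0.03. Gdf10 had -0.31, 0.20, -0.02 and -0.12, and its fitted ratio was -0.04 ± 0.21 (SE). The 2 Gdf10 features were opposite on replicate 4, at -1.23 and 1.00.

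The pattern of the 10 genes over arrays was that of Gfap. Across the 10 genes, replicate 3 correlated with replicates 1, 2 and 4 at -0.76, -0.81 and -0.73 (Pearson, n = 10 genes that share their arrays and RNA samples). Without Gfap these values were 0.18, -0.42 and -0.18 (n = 9). Over all genes the arrays correlated between -0.09 and 0.05. The genes nearest to Fabp7 over the 4 arrays by Euclidean distance were Ndfip1 (0.0332), Rps7 (0.0436) and Ankle1 (0.0472), where the median distance of all genes was 0.815. Among the other members Slc1a3 was nearest, at a distance of 0.159, and Gfap farthest at 2.70.

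Replicate 1 stood apart in Hox genes. Genes of the hindbrain behind the cerebellum (8 Hox genes of groups 2 to 5) had a median ratio of 3.12 on replicate 1, against -0.22, -0.58 and -0.34 on replicates 2 to 4. Oligodendrocyte genes had a median of 0.54 on replicate 1 and of -0.24, -0.20 and -0.02 on the others (9 of 10 listed genes measured), a gap that did not pass the test for an outlying array. The members were divided on that array. Gfap, Aqp4, Slc1a3 and Fabp7 had their highest ratio there, at 1.75, 0.51, 0.09 and 0.01. Nes, Gdf10 and Vim had their lowest ratio there, at -0.45, -0.31 and -0.29, and Sox2, Sox9 and Tnc had neither. The part of the cKO sample used there in these values was not tested. Without replicate 1 the 10 members had 0 genes with an adjusted p under 0.05, and the median of their ratios was 0.02. Other cells that hold some of these transcripts had medians of fitted ratios near 0. The median was 0.03 over 11 genes of meninges and fibroblasts, 0.06 over 10 endothelial genes and 0.00 over 6 of 7 choroid plexus genes. Medians of the remaining lists were 0.71 for the 8 Hox genes, 0.01 for the oligodendrocyte lineage, -0.25 for 8 genes of granule cell progenitors, -0.02 for 6 of 7 Purkinje cell genes, 0.01 for 5 of 6 neuronal genes and 0.17 for 7 microglial genes. None of these lists held a gene past the adjusted threshold.

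Other genes of the same glia gave no called gene either. Of 27 measured genes of glial transport and metabolism (29 listed), 16 had a fitted ratio above 0 and 11 below, with a median of 0.05. Of 27 glial transcription factors and Notch genes (28 listed), 11 were above and 16 below, with a median of -0.07. Of 21 genes of glial matrix and signalling, 9 were above and 12 below, with a median of -0.02. All 3 lists had 0 genes past the adjusted threshold in either direction, and over all genes 48.9% of fitted ratios were above 0.

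Single genes of these lists had larger ratios than the 10 members. Aldoc encodes aldolase C, the glycolytic enzyme of astrocytes and of a subset of Purkinje cells. Its only feature had 2.98, 0.79, 0.85 and 1.15 on replicates 1 to 4, above 0 on every array, as were 5.93% of all genes. The fitted ratio of Aldoc was 1.54 ± 0.53 (SE), or 2.91-fold (limma p 0.0281, adjusted p 1). It was 0.91 without replicate 1 and 1.01 with columns turned (limma p 0.452).

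Fgfr3, a fibroblast growth factor receptor of astrocytes and their progenitors, had -1.10, -0.86, -0.27 and -0.36, below 0 on every array, as were 5.72% of all genes. Its fitted ratio was -0.74 ± 0.26 (SE; limma p 0.0313, adjusted p 1), and -0.17 with columns turned. Mdk, which encodes the growth factor midkine, had -0.32, -0.43, -0.78 and -0.88 and a fitted ratio of -0.51 ± 0.23 (SE; limma p 0.0739, adjusted p 1), and of -0.22 with columns turned. The Notch effector Hes1 had -0.88, 0.06, -1.07 and -0.46, with a fitted ratio of -0.63 ± 0.33 (SE; limma p 0.105, adjusted p 1). The ratio of Hes1 was -0.98 without replicate 2, -0.41 without replicate 1 and -0.36 without replicate 3. F3, the tissue factor gene, which astrocytes express, had 1.23, 0.84, -0.18 and 0.74, lowest on replicate 3 as Gfap was, and a fitted ratio of 0.63 ± 0.32 (SE; limma p 0.0973, adjusted p 1). With columns turned the ratio of F3 was 0.07 (limma p 0.91). The ratio of Nfix, a nuclear factor I gene of glial differentiation, was 0.43 ± 0.27 (SE), and it was 0.13 without replicate 2 and -0.27 with columns turned.

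Relatives of the members by sequence or assembly were examined as well. The 13 other genes of intermediate filaments and their linkers had a median fitted ratio of 0.02, with 7 above 0 and 6 below. The 2 of lowest p were the neurofilament gene Nefm at 0.41 ± 0.26 (SE), which was 0.21 without replicate 3, and the muscle filament gene Des at 0.80 ± 0.57 (SE), which was 1.99 on replicate 1 and 0.12 without it. The 2 Nefm features disagreed, with fitted ratios of -0.32 and 1.13. The 14 paralogs of members had a median of 0.06, with 9 above 0 and 5 below, and those of lowest p were Sox11 at -0.34 ± 0.20 (SE) and the neuronal glutamate transporter gene Slc1a1 at -0.34 ± 0.23 (SE). With columns turned Sox11 had 0.04 and Slc1a1 -0.07, and Sox11 had -0.22 without replicate 2 and Slc1a1 -0.22 without replicate 3. None of these genes passed the adjusted threshold.

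**Figure D3:**
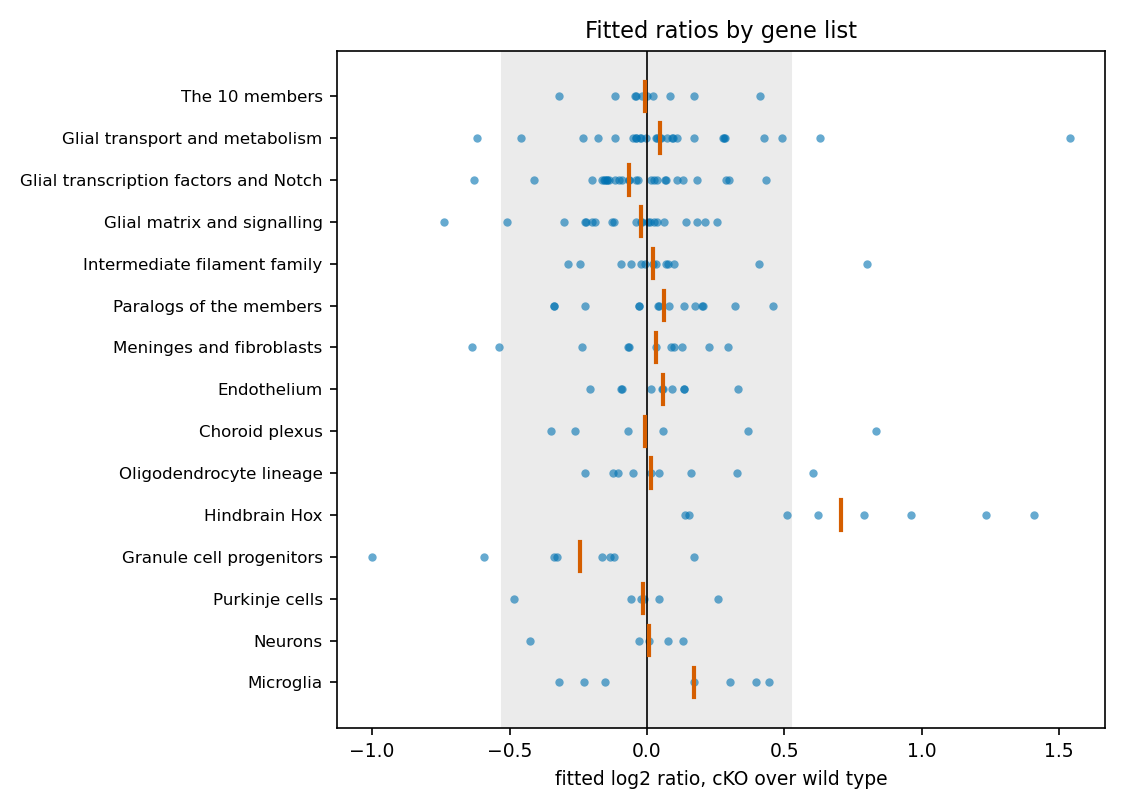
Fitted log2 ratio of cKO over wild type of each gene (points), by gene list, with the median of the list as an orange bar. The grey band holds the middle of all genes, from the 5th percentile at -0.53 to the 95th at 0.52, and all 10 members lie inside it.

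The probe sequences were not used here. For the 2 genes at the ends of the range of spread over arrays, Fabp7 and Gfap, the 250 bases before the start site are shown as the regulatory sequence nearest to the transcripts measured (RefSeq, GRCm38.p6). Capitals mark matches to TGGGAA, the core recognised by RBPJ, the DNA-binding partner of Notch, on either strand. The Fabp7 stretch is chr10:57784673-57784922 on the plus strand, with a match that begins 249 bases before the start site, and the Gfap stretch is chr11:102897201-102897450 on the minus strand, with a match that begins 115 bases before it.
Fabp7: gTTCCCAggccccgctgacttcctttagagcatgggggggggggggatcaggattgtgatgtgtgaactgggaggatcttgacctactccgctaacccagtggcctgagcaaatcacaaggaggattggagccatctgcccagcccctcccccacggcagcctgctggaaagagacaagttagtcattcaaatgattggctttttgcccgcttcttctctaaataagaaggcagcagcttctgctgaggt
Gfap: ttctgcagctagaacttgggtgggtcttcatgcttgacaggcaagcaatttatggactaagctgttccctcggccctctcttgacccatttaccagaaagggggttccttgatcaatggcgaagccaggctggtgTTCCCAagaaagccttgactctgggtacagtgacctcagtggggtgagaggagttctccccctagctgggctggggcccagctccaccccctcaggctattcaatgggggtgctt

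Promoters of 8 of the 10 members were matched by symbol. TGGGAA or its reverse complement was found in those of Fabp7, Gfap and Tnc, and in 21.5% of 27025 promoters of the same length. A SOX core, ACAAAG, was found in that of Sox2 and in 16.5% of promoters, and a TATA box, TATAAA, in those of Slc1a3, Vim and Tnc and in 13% of promoters. The nuclear factor I half-site TTGGCA was found in 0 of the 8 and in 12.5% of promoters. Both strands were searched, and no 2 matches overlapped in the stretches shown. A match is a description of the letters only.

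**Figure D4:**
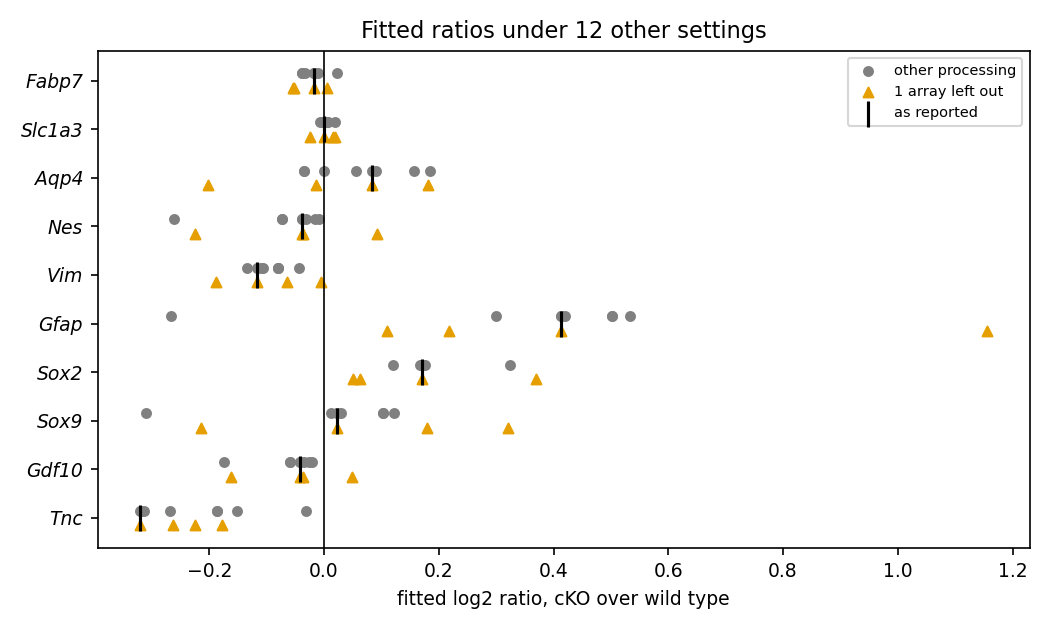
Fitted log2 ratio of cKO over wild type of each of the 10 genes as reported (black bars), with 1 array left out (orange triangles) and under 8 other processing settings (grey points). Gfap has the widest range, from -0.27 to 1.16, and Fabp7, Slc1a3, Aqp4, Nes, Gfap, Sox9 and Gdf10 take both signs.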

How the data were processed

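Per the labels, Trizol RNA was made into cDNA and labelled with a dendrimer kit. The deposited values are a log ratio per feature and array, read here as log2, and no source used here states the normalization, log base or direction. The deposited columns had medians of 0.01, 0, 0.01 and -0.02. With a natural log, the folds printed would understate the differences. To see if the columns share 1 orientation, 47 features without a symbol and beyond 4 in size on every array were examined. Their medians were -7.03, 7.07, -6.40 and 6.62 on replicates 1 to 4. The sign followed the dye of the genotype, which a fixed ratio of the dyes would not do. It does not tell cKO over wild type from the inverse. The labels place cKO in channel 2, and the sign of the feature annotated Smarca5 was used to choose the direction. No filter on dim spots was possible, and with so few arrays precision is limited.

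Of 38880 features 30457 had 1 gene symbol, 8423 none and none several. Of 21476 symbols 12795 were current in RefSeq (GRCm38.p6, used for names), 8317 were replaced through a synonym of 1 gene and 364 were kept. Arrays were centred on their median and features of a current name averaged, giving 19909 genes. In R 4.3.3, limma 3.58.1 (tables were handled with the data.table package, version 1.17.8) fitted an intercept by generalized least squares, two-sided, with a correlation of 0.5 between arrays sharing an RNA sample. Replicates 1 to 3 then weigh 0.333 each and replicate 4 has a weight of 0, though it enters the residual variance. Replicates 1 and 3 had cKO in Cy5 and replicate 2 had it in Cy3. A dye effect therefore does not cancel in the fitted ratios. Estimated from the data, with negative values not allowed, the correlation between arrays sharing an RNA sample was 6.89e-05. This is the lower limit of the search, so that setting gave nearly the same fit as independent arrays. Benjamini-Hochberg adjustment was over all genes (or features), with a threshold of 0.05. Intervals are 95% and not adjusted for the number of genes. The fit was tested on simulated data only with the correlation used to simulate them. A fit with a correlation of 0.5 to independent arrays was not simulated.

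The members and lists were chosen with earlier results of these data known. Named genes were the 10 members, Smarca5, the 2 genes of lowest p in each other list and the 3 genes nearest to Fabp7; for lists of other cell types the text gives medians. The settings tried were independent arrays, an estimated correlation, turned dye-flip columns, a dye term, no centring, scaling to 1 spread, the median of features, unmerged symbols and each array left out. The ratio of Vim without 1 feature was added after the data were seen.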

Additional observations from a re-analysis of the deposited data

Results flagged for a closer look

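On replicate 1 the Vim feature UT02442 had a ratio of -1.97, while it lay from -0.02 to 0.16 elsewhere. The median of the 8 hindbrain Hox genes was 3.12 on replicate 1 and from -0.58 to -0.22 elsewhere. In both cases replicate 1 was farther from its nearest array than Dixon's test for 4 values allows. This test was applied to 59 sets of values (the 10 genes, the 35 features and the medians of the other lists), of which about 2.95 would be picked out by chance and 2 were.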

How the results depend on the processing

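The number of members with an adjusted p under 0.05 was 0 under all 12 alternatives run, and at an unadjusted p under 0.05 it was 0 except without replicate 3, where it was 1 (Gfap). Among the alternatives, independent arrays and an estimated correlation were nearly the same fit. Over all genes the limma count at an adjusted p under 0.05 was also 0 in each, with 139 to 995 genes at an unadjusted p under 0.05 against 310 as reported. The interval stayed inside 2-fold for 9 members as reported, for 4 without replicate 2, and for 8 without replicate 1 or with the median of features.

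With dye-flip columns turned, the sign reversed for Fabp7 (0.023), Gfap (-0.27), Sox9 (-0.31), Nfix (-0.27) and Sox11 (0.0425), and the median of the members moved to -0.0823. Turned columns would suit deposited values that are a fixed ratio of the dyes. The sign of the 47 features without a symbol did not follow such a ratio. Aqp4 had -0.0356 with independent arrays and with an estimated correlation. Replicate 4 has a weight of 0 in the fit as reported and in the turned one. Turning therefore changes a fitted ratio only through the sign of replicate 2. With independent arrays replicate 4 enters the ratio, and Aqp4 had -0.40 there. What lies behind the values of replicates 2 and 4 was not tested. The ratio of Smarca5 was -0.42 ± 0.23 (SE) with both features merged and -0.98 with symbols kept apart. Kept apart, no gene had the name Nefm.

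Leaving out 1 array gave ratios from -0.0543 to 0.005 for Fabp7, -0.0243 to 0.0186 for Slc1a3, -0.20 to 0.18 for Aqp4, -0.23 to 0.0921 for Nes, -0.19 to -0.0049 for Vim, 0.11 to 1.16 for Gfap, 0.0514 to 0.37 for Sox2, -0.22 to 0.32 for Sox9, -0.16 to 0.0486 for Gdf10 and -0.32 to -0.18 for Tnc. The median of the members ranged from -0.0788 to 0.0218, the number of members at an unadjusted p under 0.05 from 0 to 1, and the median of glial transport and metabolism genes from 0.0467 to 0.12. Each array holds both genotypes, so every ratio is already a comparison within an array. The 4 arrays form 1 group, and no further pairing was used.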
